A study of Mus musculus with 6 samples.

Results

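The genes described here are 8 members of the chemokine system: the ligands Cx3cl1, Cxcl12, Cxcl14, Cxcl1, Cxcl3 and Ccl2 and the receptors Cx3cr1 and Cxcr4. They were measured by every array probe that the platform annotation assigns to 1 of these symbols, which gave 13 probes for 8 of the 19057 genes with probes. Cxcl12 had 5 probes, Cxcl14 had 2 and the other 6 genes had 1 each. The genes were chosen with their difference between the genotypes known, so their values are given as a description and without a test.

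RNA came from embryonic day 9.5 mouse embryos on a mixed FVB and 129 background. The mutant tissue was surface ectoderm of Pax6-/- embryos, which lack a transcription factor needed for eye development, and the wild type tissue was the lens placode, the thickened ectoderm over the optic vesicle from which the lens forms. Both were cut by laser microdissection from frozen, eosin-stained sections. RNA of 3 embryos per genotype was pooled, and 3 amplified samples per genotype were each hybridised to 1 Illumina bead array, so the p-values given for other genes measure only the spread between these samples, which may be technical. The Pax6-/- arrays detected 21329, 17276 and 21589 of 45281 probes and the wild type arrays between 21062 and 22712. Pax6-/- replicate 2 was thus dim, and values without it are given below. Precision is limited by the number of arrays. The 2 Pax6 probes read 9.95 to 10.79 in Pax6-/- and 10.84 to 11.21 in wild type on the log2 scale. All Pax6-/- arrays lay below all wild type arrays on each probe. The sources used here name neither the allele nor the place of these probes in the gene, so these values are no full check of the labels.

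Chemokines are small secreted proteins that bind receptors of the G protein-coupled class and guide the migration of cells. They are grouped by the spacing of the first conserved cysteines into the CC, CXC and CX3C types. Cxcl12 and its receptor Cxcr4 act in the migration of neural crest, germ and endothelial precursor cells of the embryo, while ligands such as Cxcl1 and Ccl2 are best known for recruiting leukocytes during inflammation. Cx3cl1, also called fractalkine, is unusual in being made as a membrane-anchored protein whose chemokine domain sits on a stalk.

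Levels are log2 signals after background correction and quantile normalization, and differences are Pax6-/- minus wild type. A probe counted as detected on an array where its detection p was under 0.05, and it was tested where it was detected on at least 3 of the 6 arrays. Of the 13 probes 8 were tested, from 5 genes. The rest, for Cx3cr1, Cxcl1, Ccl2 and part of Cxcl12, were too dim. On 6 of the 8 tested probes every Pax6-/- array lay below every wild type array, where 9.13% of all 21971 tested probes did so. On 0 of them did Pax6-/- lie above wild type without overlap, where 8.14% of all probes did. Without the dim array the count was again 6 of 8, where 14.3% of all probes lay lower without overlap. These counts describe genes that were picked for this difference, and nothing is read from them.

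**Figure D1:**
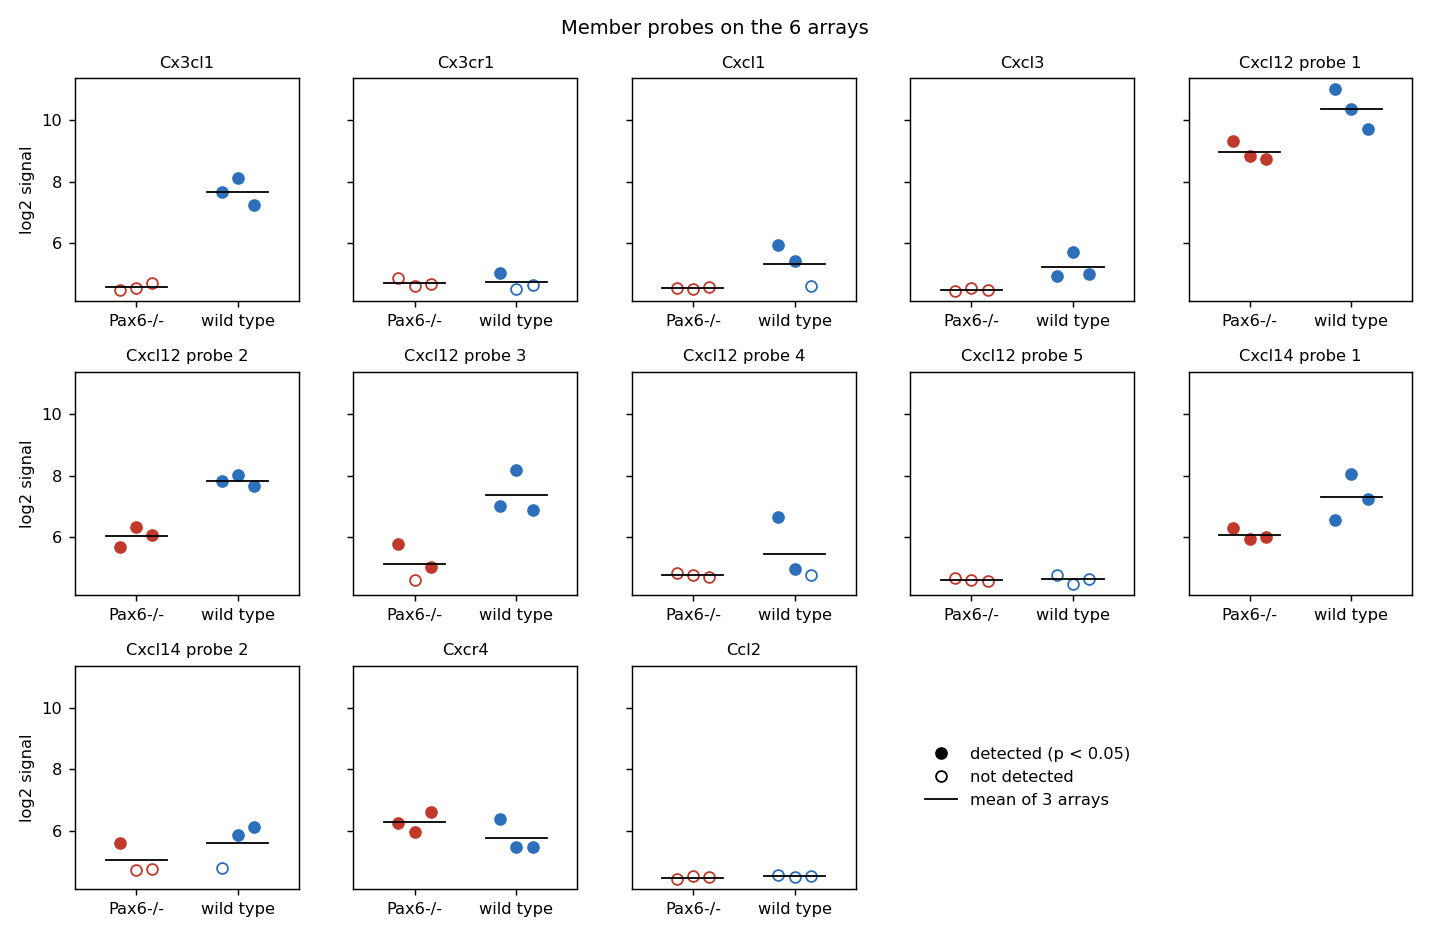
Log2 signal (vertical axis) of each of the 13 probes on the 3 Pax6-/- and the 3 wild type arrays, with filled points for arrays on which the probe was detected, open points for the others and a line at the mean of 3 arrays. Probes of the same gene are numbered from the brightest. Cx3cl1 was detected on the 3 wild type arrays alone, with a mean of 7.68 there and of 4.56 in Pax6-/-.

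Cx3cl1 had the largest difference of the 8 genes, in a pattern of presence in the lens placode and no detected signal in the mutant ectoderm. On its probe, ILMN_2627041, the log2 signal was 4.46, 4.53 and 4.69 in Pax6-/- and 7.67, 8.12 and 7.24 in wild type. The genotypes lay 2.55 apart at their nearest points, and every wild type array was well above every Pax6-/- array. The mean was 4.56 ± 0.12 in Pax6-/- and 7.68 ± 0.44 in wild type (SD, n = 3 each). The fitted difference was -3.12 (SE 0.31). Since the probe was not detected on any Pax6-/- array, the fold is a bound. Against the lowest detected signal of those arrays, or the probe's own value where higher, Cx3cl1 was at least 6.21-fold lower in Pax6-/-. This bound holds for the wild type mean in this processing alone, and other processing given below made the difference smaller. The probe entered the tested set through the wild type arrays alone, and a probe kept in that way had to differ.

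The scanner readings behind these values show the same separation before any correction. The uncorrected Cx3cl1 signal was 48.4, 50.8 and 58.3 in Pax6-/- and 258, 356 and 189.6 in wild type. Its detection p was 0.927, 0.717 and 0.177 on the Pax6-/- arrays, all above the detection limit of 0.05. Each reading rests on 23 to 44 beads, and the standard error over beads was 2.79% to 6.44% of the signal. The bead error of at most 10.9 units was small beside the spread of the wild type arrays, which covered 189.6 to 356. In the authors' deposited value table the same probe read -6.41, -2.36 and 5.70 in Pax6-/- and 190.4, 261 and 138 in wild type.

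**Figure D2:**
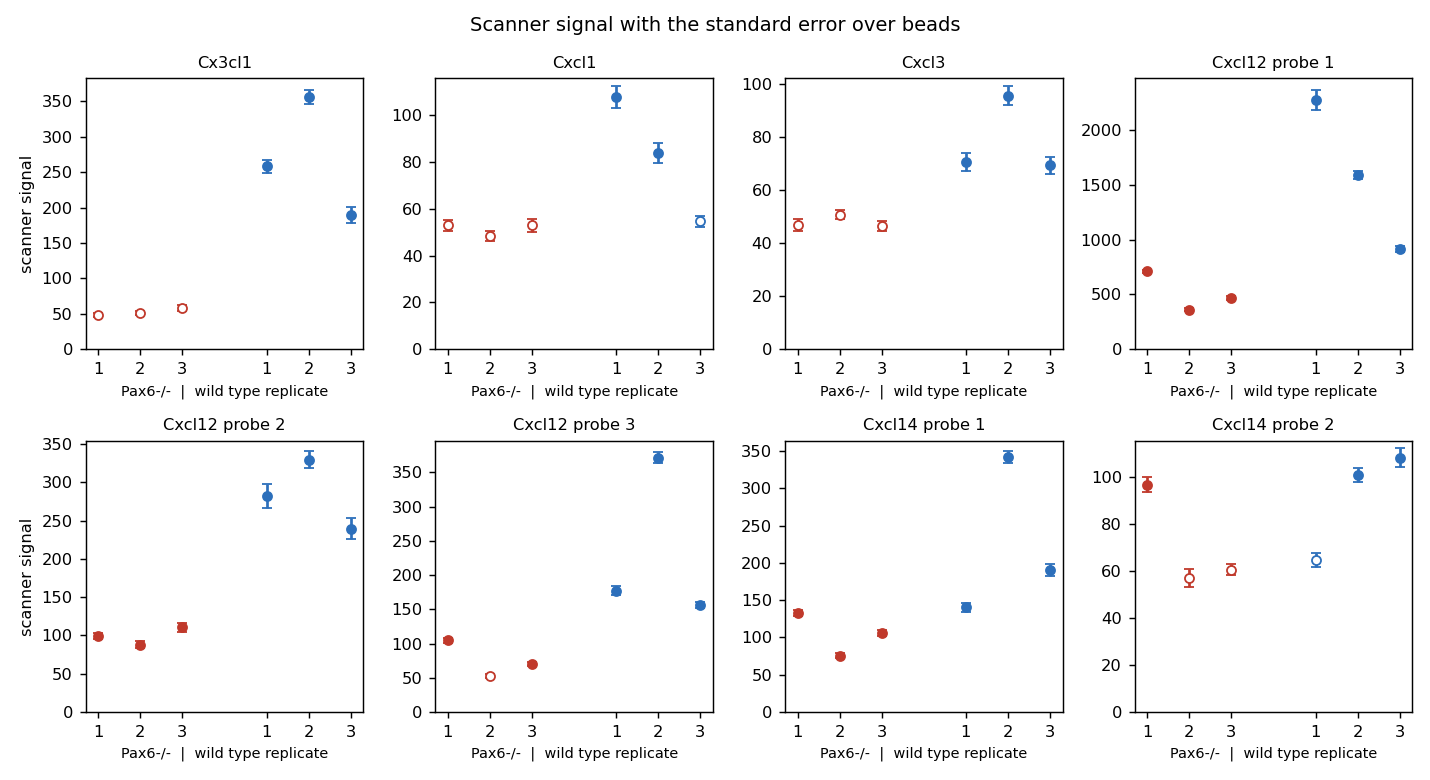
Uncorrected scanner signal (linear vertical axis, separate for each panel) on the Pax6-/- and wild type arrays, with bars for the standard error over the beads of an array and open points where the probe was not detected. Cx3cl1 read 48.4 to 58.3 in Pax6-/- and 189.6 to 356 in wild type, with bead errors much smaller than the gap.

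The median difference of all 10967 tested genes was -0.07. Detection on all wild type arrays and no Pax6-/- array was the pattern of 111 genes, or 1.01%, Cx3cl1 among them. The difference was -3.17 within slide 1, which held Pax6-/- replicates 1 and 2 and wild type replicate 1, and -2.99 within slide 2. It was -3.10 without the dim Pax6-/- replicate 2, and leaving out single arrays gave -3.33 to -2.89. It shrank to -2.06 with a larger background offset of 50, which compresses dim signals.

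The promoter of Cx3cl1 is shown because this gene carries the widest gap, together with that of Cxcl12, the member with the most probes. In the GRCm38.p6 gene table Cx3cl1 lies on chromosome 8 between the CC ligand genes Ccl22 and Ccl17, neither of which was detected on any array. Both promoters are from RefSeq (GRCm38.p6), cover 250 bases before to 50 after the annotated start, and are written on the strand of the gene, with a TATA box match (TATAAAA) in capitals.
Cx3cl1, chr8:94771930-94772229, plus strand: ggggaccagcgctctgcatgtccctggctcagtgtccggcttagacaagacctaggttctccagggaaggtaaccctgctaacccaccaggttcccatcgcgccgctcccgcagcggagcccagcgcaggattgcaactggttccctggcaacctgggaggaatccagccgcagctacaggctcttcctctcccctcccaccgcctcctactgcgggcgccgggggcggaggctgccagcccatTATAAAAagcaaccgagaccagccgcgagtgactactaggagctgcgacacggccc
Cxcl12, chr6:117168285-117168584, plus strand: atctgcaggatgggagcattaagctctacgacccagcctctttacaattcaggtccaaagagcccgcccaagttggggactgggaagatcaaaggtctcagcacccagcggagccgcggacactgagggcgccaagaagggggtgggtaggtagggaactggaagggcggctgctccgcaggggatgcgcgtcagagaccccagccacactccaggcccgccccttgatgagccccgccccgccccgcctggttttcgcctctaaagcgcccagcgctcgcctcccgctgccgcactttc

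Promoters were listed for 7 of the 8 genes. The exact TATA box letters TATAAAA stood on the gene's strand in Cx3cl1, 6 bases before the annotated start, and 30 bases before it in Cxcl3 and Cxcr4. In Cxcr4 a second match on the other strand, 33 bases before the start, overlapped the first. On either strand these letters were in 3 of the 7 promoters and in 5.48% of all 32851 promoters. The core letters of a Pax6 paired domain site (TTCACGC) were in 0 of the 7 and in 1.26% of all promoters, and the palindromic homeodomain dimer site (TAAT and ATTA with NNN between them) was in 0 of the 7 and in 0.487% of all. A missing match says only that these letters are not in this window of 300 bases.

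Cx3cr1, the receptor of Cx3cl1 on monocytes, microglia and some lymphocytes, was near the detection limit. Its signal was 4.85, 4.59 and 4.67 in Pax6-/- and 5.03, 4.51 and 4.64 in wild type. It was detected on 0 Pax6-/- arrays and on 1 wild type array, replicate 1, and the genotypes overlapped. No fold is given for it, and a change in the receptor was not detectable at this signal. Enzymes that release the chemokine domain of Cx3cl1 from the cell surface were detected in both genotypes. Adam10 read 8.82, 8.37 and 9.11 in Pax6-/- and 9.29, 9.10 and 9.78 in wild type (difference -0.62, SE 0.32, limma adjusted p = 0.599). Adam17 read 10.69 to 11.05 in Pax6-/- and 10.45 to 10.92 in wild type.

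Cxcl12, the ligand of Cxcr4, gave lower signal in Pax6-/- on the 3 probes that were tested. On the first of them, ILMN_2658908, the signal was 9.33, 8.85 and 8.74 in Pax6-/- and 11.04, 10.36 and 9.71 in wild type. The transcript was detected on all 6 arrays, and the groups lay 0.38 apart, with wild type replicate 1 the highest and replicate 3 the lowest of wild type. The mean was 8.97 ± 0.31 in Pax6-/- and 10.37 ± 0.67 in wild type (SD, n = 3 each), a difference of -1.40 (SE 0.40), or 2.64-fold lower. This difference was -1.95 within slide 1 and -1.29 within slide 2, and -1.06 without wild type replicate 1.

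The second Cxcl12 probe, ILMN_2746295, read 5.66, 6.32 and 6.07 in Pax6-/- and 7.82, 8.0 and 7.64 in wild type. It was detected on all 6 arrays, and here the groups lay 1.32 apart with little spread within wild type. Its difference was -1.81 (SE 0.29), or 3.50-fold lower, and was close to that within slide 1 (-1.83) and slide 2 (-1.75). Another probe, ILMN_2737302, is annotated to the same transcript as the second. It read 5.77, 4.58 and 5.01 in Pax6-/- and 6.99, 8.18 and 6.88 in wild type. Among Pax6-/- arrays, replicates 1 and 3 detected it. Its fitted difference was -2.23 (SE 0.47), and against the lowest detected signal it was at least 3.90-fold lower. Without background correction or with an offset of 50 these differences were -1.39 to -1.28 for ILMN_2746295 and -1.53 to -1.44 for ILMN_2737302.

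A further transcript of Cxcl12 is covered by the 2 remaining probes. The first of these, ILMN_3158250, was detected on wild type replicates 1 and 2 and on 0 Pax6-/- arrays, with 4.82, 4.76 and 4.70 in Pax6-/- and 6.65, 4.94 and 4.76 in wild type. Wild type replicate 1 alone stood apart, and without it the difference was -0.09 in place of -0.69. The other, ILMN_3078973, was not detected on any array, so a difference on this probe was not detectable at this signal.

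Cxcr4, the signalling receptor of Cxcl12, overlapped between the genotypes. Its signal was 6.25, 5.95 and 6.62 in Pax6-/- and 6.39, 5.45 and 5.46 in wild type. All 6 arrays detected it, and wild type replicate 1 lay among the Pax6-/- arrays. The mean was 6.27 ± 0.34 in Pax6-/- and 5.77 ± 0.54 in wild type (SD, n = 3 each), a difference of 0.51 (SE 0.36). The sign turned between the slides: it was -0.29 within slide 1 and 1.16 within slide 2. Ackr3, the scavenging receptor that also binds Cxcl12, was detected on 1 wild type array and on 0 Pax6-/- arrays.

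Cxcl14, an epithelial chemokine whose receptor is not settled, was covered by a pair of probes annotated to the same transcript. The brighter, ILMN_2760800, read 6.28, 5.93 and 5.98 in Pax6-/- and 6.55, 8.06 and 7.25 in wild type. All 6 arrays detected it, and the groups lay 0.27 apart, with wild type replicate 1 close to the Pax6-/- arrays. Its difference was -1.22 (SE 0.41), or 2.33-fold lower, but -0.44 within slide 1 and -1.67 within slide 2, and it was -0.83 without wild type replicate 2. The dimmer probe, ILMN_2659426, read 5.60, 4.73 and 4.75 in Pax6-/- and 4.78, 5.85 and 6.10 in wild type. The groups overlapped on it, with 1 Pax6-/- array and 2 wild type arrays detected. Its difference was -0.56 (SE 0.44), with 0.38 within slide 1 and -1.23 within slide 2. Wild type replicate 1 was the lowest wild type array on both probes of Cxcl14 and the highest on Cxcr4.

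**Figure D3:**
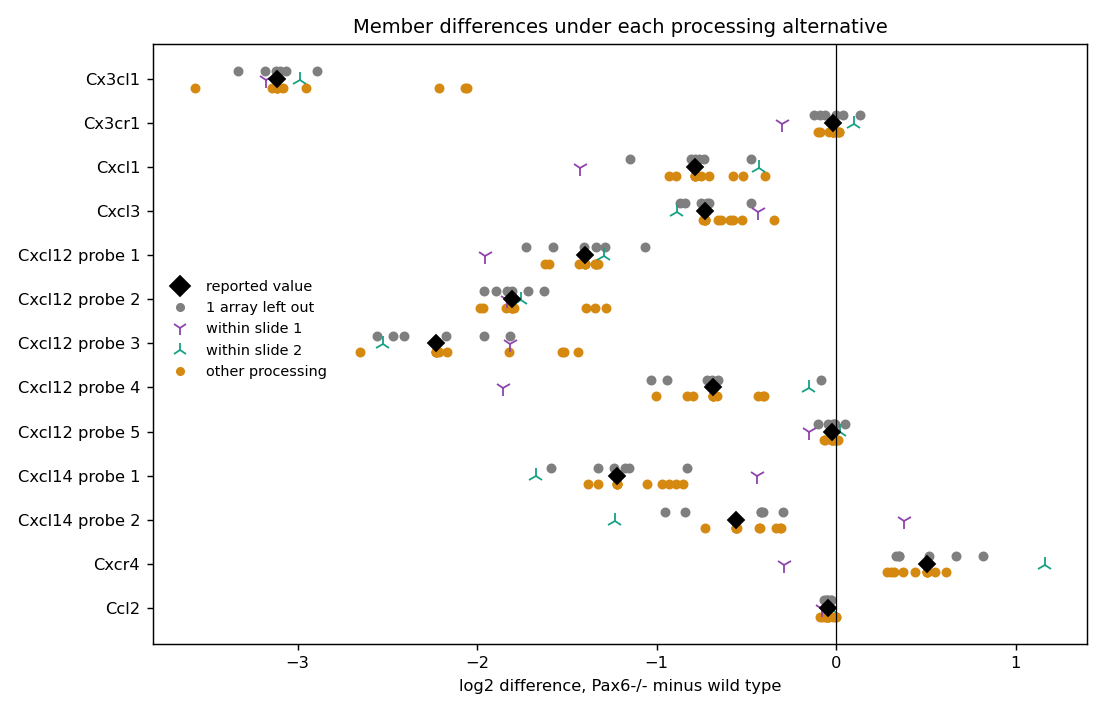
Log2 difference, Pax6-/- minus wild type, of each probe as reported (diamond) and with 1 array left out, within each slide or with other processing. Cx3cl1 lay between -3.57 and -2.06 and the tested Cxcl12 probes stayed below 0, while Cxcr4 was -0.29 within slide 1 and 1.16 within slide 2.

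Cxcl1 and Cxcl3, which attract neutrophils through Cxcr2, were faint in the lens placode and not detected in the mutant ectoderm. Cxcl3 read 4.44, 4.53 and 4.46 in Pax6-/- and 4.92, 5.72 and 4.98 in wild type. All 3 wild type arrays detected it, replicate 2 with the highest signal, and the groups lay 0.39 apart. The fitted difference was -0.73 (SE 0.30). It was -0.43 within slide 1 and -0.89 within slide 2, -0.47 without wild type replicate 2, and -0.34 with a background offset of 50. Against the lowest detected signal Cxcl3 was at least 1.12-fold lower, so most of that difference lies below the detection limit. Cxcl1 read 4.53, 4.49 and 4.58 in Pax6-/- and 5.94, 5.42 and 4.60 in wild type. It was detected on 2 wild type arrays, and replicate 3 lay only 0.02 above the highest Pax6-/- array. Cxcl1 was therefore not in the tested set.

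These 2 genes lie in the CXC ligand cluster on chromosome 5, separated in the GRCm38.p6 gene table by 1 other coding gene, Cxcl15. Their uncorrected signals did not run in parallel: Cxcl1 was highest on wild type replicate 1, at 107.6, and Cxcl3 on wild type replicate 2, at 95.5. Of their neighbours in the cluster, Pf4 was tested, Cxcl2 was detected on at most 1 array, and Ppbp and Cxcl15 on 0. The genes are close relatives, and whether their probes cross-hybridise was not tested. Their promoters are shown because the pair shares a site. The same NF-kB site (GGGAA followed directly by TTTCC, in capitals with any TATA box) begins 71 bases before the start of Cxcl1 and 73 before that of Cxcl3, and was in 2 of the 7 promoters and 0.0883% of all on either strand. The motif was chosen with these promoters in view.
Cxcl1, chr5:90891145-90891264, plus strand: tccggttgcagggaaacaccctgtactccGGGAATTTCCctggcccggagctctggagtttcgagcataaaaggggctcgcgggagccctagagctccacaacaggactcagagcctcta
Cxcl3, chr5:90786001-90786120, plus strand: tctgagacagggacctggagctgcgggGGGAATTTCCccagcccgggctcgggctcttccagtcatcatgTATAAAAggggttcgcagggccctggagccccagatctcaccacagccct

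Ccl2, the monocyte attractant that signals through Ccr2, was not detected on any array. It read 4.43, 4.51 and 4.47 in Pax6-/- and 4.55, 4.49 and 4.50 in wild type, all at the floor of the scale. Of the neighbouring CC ligands on chromosome 11, Ccl7, Ccl8, Ccl12 and Ccl1 were likewise not detected, while Ccl11 was detected on all 6 arrays.

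The rest of the chemokine family was mostly not detected. Of 57 other ligands and receptors 53 had probes, 38 of these were not detected on any array, and 7 genes were tested. On the brightest tested probe of each gene, limma called 0 of the 7 over all probes in either direction, where 0.00912% of genes were called, and 0 had an unadjusted p under 0.05, where 9.09% of genes did. The genotypes overlapped on each of these 7 probes, where 17.5% of all genes had no overlap. A dimmer probe of Ccl27a, given below, did not overlap. All 5 tested ligands had positive differences and both tested receptors negative ones, with a median of 0.39 over the 7 beside -0.07 over all genes. This median was 0.27 without the dim array, 0.24 with median scaling, 0.19 with the mean of the tested probes of a gene, and -0.01 over the 53 genes with no detection filter.

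Among the tested ligands, Ccl25, which guides thymocyte precursors, read 9.75, 9.65 and 9.44 in Pax6-/- and 8.74, 9.17 and 9.45 in wild type (difference 0.49, SE 0.29, limma adjusted p = 0.630). Its 2 dimmer probes differed in sign, at 0.36 and -0.28. Ccl11, the eosinophil attractant eotaxin, read 9.07, 10.55 and 9.01 in Pax6-/- and 7.80, 9.82 and 8.30 in wild type (difference 0.91, SE 0.64, limma adjusted p = 0.673). Replicate 2 was the highest in both genotypes, and the groups overlapped. Ccl27a, a skin chemokine, had a difference of 0.39 (SE 0.28, limma adjusted p = 0.677) on its brighter probe. Its dimmer probe read 7.96, 8.42 and 7.99 in Pax6-/- and 7.49, 7.25 and 7.64 in wild type, without overlap (difference 0.66, SE 0.27, limma unadjusted p = 0.045, adjusted p = 0.531). Pf4, the platelet chemokine, read 5.53, 4.55 and 7.93 in Pax6-/- and 4.69, 4.45 and 5.11 in wild type, a difference of 1.25 (SE 0.81, limma adjusted p = 0.653) in which Pax6-/- replicate 3 stood far above the other arrays. The receptors Cxcr6 and Cxcr2 were dim, at -0.75 (SE 0.68, limma adjusted p = 0.741) and -0.22 (SE 0.39, limma adjusted p = 0.873).

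**Figure D4:**
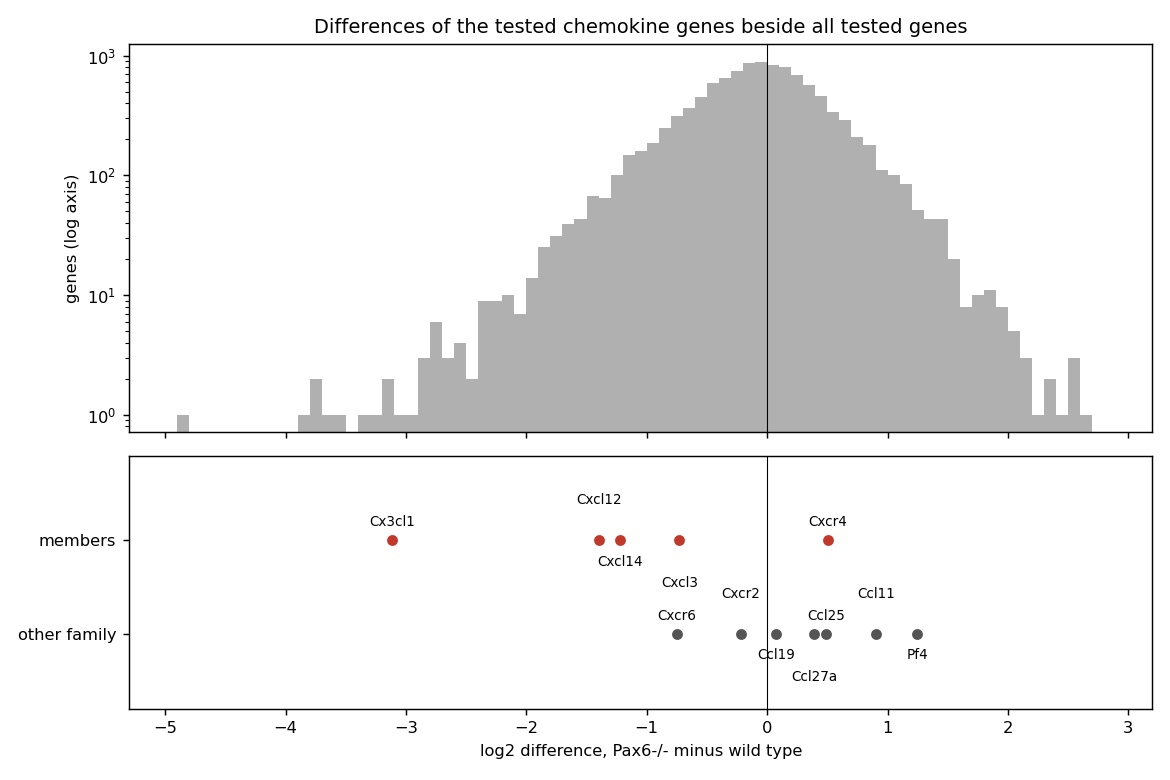
Number of genes (logarithmic axis) by log2 difference, Pax6-/- minus wild type, over 10967 tested genes, with the 5 tested genes described here and the 7 other tested chemokine genes marked below. Cx3cl1 lies at -3.12, and the other chemokine genes lie between -0.75 and 1.25.

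Genes that act on or below chemokines were read from the same fit. Of 27 genes of chemokine shedding, trimming and receptor signalling 18 were tested, 7 lower and 11 higher with a median of 0.06. By limma 0 were called, and 0 had an unadjusted p under 0.05, where 9.09% of all genes did. In 1 of the 18, Mif, Pax6-/- lay higher without overlap (0.24, SE 0.24, limma adjusted p = 0.764), where 7.21% of all genes did. Apart from Adam10, the smallest p-values belonged to the G protein subunits through which chemokine receptors signal: Gnai2 (-0.74, SE 0.44, limma adjusted p = 0.633), Gnai1 (0.47, SE 0.32, limma adjusted p = 0.664) and Gnai3 (-0.38, SE 0.34, limma adjusted p = 0.733). Of 22 genes of the NF-kB pathway and its inflammatory targets, 9 were tested, 8 lower and 1 higher with a median of -0.48, and 0 were called by limma (0 at an unadjusted p under 0.05). In 2 of the 9 the genotypes did not overlap, both lower, where 10.3% of genes lay lower without overlap. These were the kinase gene Ikbkb, at 6.18, 6.83 and 6.98 in Pax6-/- and 7.66, 7.43 and 7.09 in wild type (-0.73, SE 0.32, limma adjusted p = 0.561), and Nfkb2, at 5.84, 5.22 and 6.05 in Pax6-/- and 6.26, 6.87 and 6.14 in wild type (-0.72, SE 0.34, limma adjusted p = 0.578). Nfkbie, an inhibitor of the pathway, had a fitted difference of -1.0 (SE 0.43, limma adjusted p = 0.545) and was detected on 1 Pax6-/- array, and Ikbkg of -0.86 (SE 0.47, limma adjusted p = 0.617). The cytokine genes Il1a, Il1b, Il6 and Tnf were not detected on any array.

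Genes were also ranked by how like their pattern over the 6 arrays was to that of each chemokine, as the distance between mean-centred log2 profiles. A gene with like levels in both genotypes lies far from a chemokine with a large difference. Nearness to such a chemokine therefore mainly reflects a difference of like size and direction. The 6 nearest to Cx3cl1 were the fatty acid elongase Elovl3 (distance 0.60), the beta crystallin Crybb3 (0.62), the lens fibre regulator Maf (0.69), the GABA-synthesising enzyme Gad2 (0.72), the heparan sulfate sulfotransferase Hs3st1 (0.72) and the transcription factor Osr2 (0.80), where the median gene lay at 3.93. Elovl3 read 4.58, 4.61 and 4.62 in Pax6-/- and 7.21, 7.64 and 7.25 in wild type. Crybb3 read 4.53, 4.65 and 4.58 in Pax6-/- and 7.34, 7.64 and 6.70 in wild type. Elovl3, Crybb3 and Osr2 were, like Cx3cl1, not detected on any Pax6-/- array. Over the 6 arrays 84 of the 10966 other tested genes correlated with Cx3cl1 above 0.95, so the genes named are not alone in this pattern.

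The nearest to the brightest Cxcl12 probe, ILMN_2658908, were Tmem254a (0.56), Tmem115 (0.56) and Coro2b (0.59), beside a median of 2.23. That probe was highest on wild type replicate 1, while ILMN_2746295 and ILMN_2737302 were highest on replicate 2. The nearest to the brighter Cxcl14 probe were Nanog (0.42), Arhgap32 (0.44) and Sox2 (0.47), beside a median of 2.09. Sox2, a factor of early lens and neural ectoderm, read 8.99, 9.14 and 8.93 in Pax6-/- and 9.24, 10.72 and 10.04 in wild type, with the same order of wild type arrays as the brighter Cxcl14 probe but not the dimmer one. The nearest to Cxcl3 were Lrrc3b (0.16), Elovl4 (0.21) and Trex1 (0.26), beside a median of 1.53, and to Cxcr4 Sgip1 (0.27), Ube2d-ps (0.38) and Mrs2 (0.45), beside a median of 1.58.

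Markers of the tissue and of neighbouring cells moved with some of these values. In bulk tissue fewer cells of a type and less RNA per cell cannot be told apart. Of 9 surface ectoderm markers all 9 were tested, 2 lower and 7 higher, with list means of 9.23 to 9.67 in Pax6-/- and 9.18 to 9.32 in wild type. The 2 brightest, Cldn6 and Cdh1, differed by 0.08 and 0.06. Only Krt14 had no overlap (0.81, SE 0.33, limma unadjusted p = 0.046, adjusted p = 0.533). It lay higher, where 7.21% of all genes lay higher without overlap. Of 11 lens placode markers 9 were tested, all 9 lower and 8 of them without overlap, where 10.3% of all genes lay lower without overlap. Among these 8, Crybb3 and Pitx3 were tested through the wild type arrays alone, and a gene kept in that way had to differ. The marker lists were also chosen with earlier results of these data known. For the lens placode list the means were 6.25 to 6.56 in Pax6-/- and 7.84 to 8.38 in wild type. The brightest were Mab21l1 (-1.10) and Sox2 (-0.99), and Cryaa was not detected on any array.

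Endothelial cells are a known source of Cx3cl1 and mesenchyme of Cxcl12. Of 12 endothelial markers 8 were tested, 6 lower and 2 higher, 5 of them lower without overlap, where 10.3% of all genes were. Among these 5, Esam and Cdh5 were tested through the wild type arrays alone, and a gene kept in that way had to differ. The list means were 4.86 to 5.88 in Pax6-/-, lowest on the dim replicate 2, and 6.28 to 6.66 in wild type. Cldn5 (-2.16) and Egfl7 (-1.15) were the brightest, and Kdr was not detected on any array. Of 12 periocular mesenchyme markers 8 were tested, 5 lower and 3 higher, with a median of -0.15. The 3 without overlap, Pdgfra, Foxc2 and Col6a2, lay lower, and Col6a2 was tested through the wild type arrays alone. The list means were 6.96 to 7.33 in Pax6-/- and 7.35 to 7.87 in wild type. The brightest were Pdgfra (-1.89) and Foxc2 (-0.73). The 3 higher genes, Foxc1 (0.33), Prrx1 (0.66) and Snai2 (0.12), overlapped between the genotypes. The part of these cells in the Cx3cl1 and Cxcl12 values was not tested.

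The list means of blood cell and optic vesicle markers overlapped between the genotypes, while the single genes Pax2, Tyrobp and Klf1 did not. Of 16 macrophage and microglia markers 4 were tested, 1 lower and 3 higher, with list means of 6.12 to 7.15 in Pax6-/- and 6.17 to 7.23 in wild type. The brightest were Laptm5 (0.41) and Aif1 (0.57), and C1qa, Cd14, Fcer1g, Itgam, Ptprc and Spi1 were not detected on any array. Tyrobp, detected on 1 Pax6-/- array, lay lower without overlap (-1.03, SE 0.47, limma adjusted p = 0.568), where 10.3% of all genes did. Of 7 primitive erythroid markers 5 were tested, all with negative differences, with list means of 7.54 to 9.86 in Pax6-/- and 8.33 to 9.83 in wild type. Their brightest were Hbb-y (-0.67) and Hbb-bh1 (-0.60). Klf1 (-0.72) lay lower without overlap and was not detected on any Pax6-/- array, so it was tested through the wild type arrays alone. Of 9 optic vesicle markers 6 were tested, 3 in each direction, with list means of 6.60 to 7.31 in Pax6-/- and 6.41 to 6.65 in wild type. Their brightest were Otx2 (0.56) and Mitf (-0.23), and Six6 and Sox1 were not detected on any array. The largest differences of the list, named after their values were seen, were those of Pax2 and Lhx2. Pax2 read 6.93, 9.92 and 8.14 in Pax6-/- and 6.13, 5.05 and 6.22 in wild type, without overlap (2.53, SE 0.76, limma unadjusted p = 0.0123, adjusted p = 0.414). Lhx2 had a difference of 1.13 (SE 0.42, limma unadjusted p = 0.0312, adjusted p = 0.498), with overlap. By limma 0 genes of these marker lists were called over all probes. A limma unadjusted p under 0.05 was found for 9.09% of all genes. It was found for 8 of 9 lens placode, 4 of 8 endothelial, 2 of 8 mesenchyme and 2 of 6 optic vesicle genes. For surface ectoderm the count was 1 of 9, for macrophage 0 of 4 and for erythroid markers 0 of 5. The lists were chosen with earlier results of these data known, and some genes were tested through the wild type arrays alone. Nothing is therefore read from these counts.

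**Figure D5:**
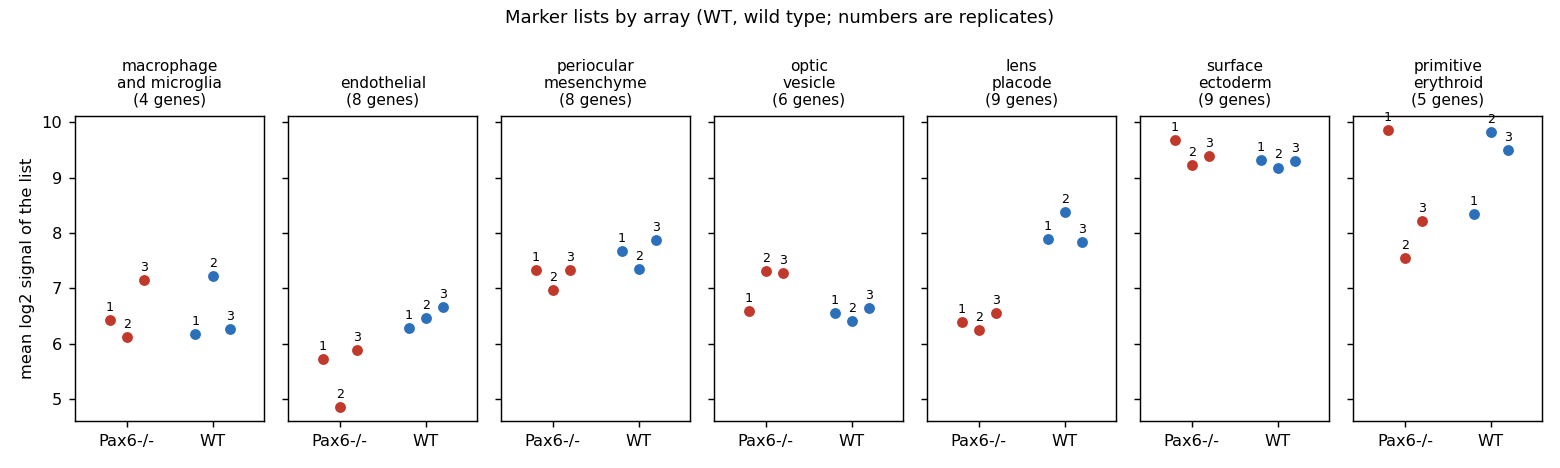
Mean log2 signal of the tested genes of each marker list on each array, Pax6-/- beside wild type (WT), with the replicate number at each point. The lens placode list lay at 6.25 to 6.56 in Pax6-/- and 7.84 to 8.38 in wild type, the endothelial list at 4.86 to 5.88 in Pax6-/- and 6.28 to 6.66 in wild type, and the macrophage list overlapped.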

How the data were processed

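Expression was measured on 6 Illumina bead arrays, 3 Pax6-/- and 3 wild type, grouped by sample title, with the slide from each description. The deposited probe table gave an average signal (linear intensity, not background-subtracted), bead number, bead standard error and detection p-value per array, per the file headers; the bead values are other columns the authors deposited and are used as description. The submitters' processing notes name GenomeStudio. A second table held the authors' processed intensity values, whose background and normalization no label or header states.

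Signals were background-corrected with limma's neqc (limma 3.58.1, R 4.3.3; controls inferred from detection p-values, offset 16), quantile normalized and put on the log2 scale, starting from the deposited intensities. Probes detected (p under 0.05) on at least 3 arrays were kept, 21971 of 45281, and fitted with lmFit and eBayes on genotype, with Benjamini-Hochberg adjustment at 0.05. The offset compresses dim differences. A gene was represented by its brightest kept probe. The fit was tested on simulated data. Symbols came from the platform annotation, where 34885 probes had 1 symbol, 18 several and 10378 none, looked up by Entrez id in the GRCm38.p6 table.

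The chemokine genes and all lists were chosen with earlier results of these data known. Named were every probe of the 8 genes, in each chemokine or pathway list called genes or else the 4 with the smallest p, the 2 brightest of each marker list, and the 6 or 3 genes nearest in pattern. Adam17, Ackr3, Mif, Krt14, Tyrobp, Klf1, undetected genes, and dimmer probes were named after their values were seen. So were the marker genes Esam, Cdh5, Pitx3, Col6a2, Foxc1, Prrx1 and Snai2. Replicate numbers are shared by the titles, but same-numbered samples deviated together with correlations of 0.06, 0.05 and 0.02 only and are not treated as pairs. Figures used matplotlib 3.10.9.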

Additional observations from a re-analysis of the deposited data

How the results depend on the processing

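Among all tested probes, 2 were called. The count was 0 with probes detected on all 6 arrays, 6 with no detection filter, 0 with the slide as a block, 0 with the replicate number as a block (replicate block), 17 with array weights and 4 with a trended, robust prior, and it ranged from 0 to 2 when each array was left out. In each of these settings 0 other chemokine genes and 0 genes of the pathway lists were called by limma, with 0 to 2 and 0 to 3 at an unadjusted p under 0.05. Every alternative kept the sign of Cx3cl1, of the tested Cxcl12 probes and of the brighter Cxcl14 probe, between -3.57 and -2.06 for Cx3cl1. Within slide 1 the dimmer Cxcl14 probe (0.38) and Cxcr4 (-0.29) changed sign. The number of tested chemokine probes lower without overlap was a count added after seeing the data. It was 5 of 8 with the authors' values, where 8.76% of all tested probes lay so. With probes detected on all arrays it was 3 of 4 (8.63% of all), and with no filter 7 of 13 (6.76%). Otherwise it was 6 or 7 of 8, where the share of all tested probes was 9.13% to 17.6%, highest without Pax6-/- replicate 3. Median scaling moved the median of all genes to -0.20, with Cx3cl1 at -3.14. Of 353 recomputed values 43 moved beyond the replicate spread or 1.5 times a count. Signal over background limits Cx3cr1, Cxcl1, Cxcl3 and Ccl2, and the cause of the differences between settings was not tested.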
